A study of Mus musculus with 20 samples.

Results

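Akr1b7, Akr1b8 and Akr1b3 are neighbouring mouse genes for NADPH-dependent aldo-keto reductases of the aldose reductase group, and all 3 were found, by their Ensembl identifiers, among the 12701 genes of the count table. Akr1b3 is named Akr1b1 in newer annotation. Akr1b7 was chosen for its counts over the diets, in which the 2% diet was already as high as the higher levels of starch, so its values are given as a description without a test. Akr1b8 and Akr1b3 were chosen as its relatives, and their comparisons were tested. RNA was sequenced from the proximal colon (PC) of 20 C57BL/6 mice, with 1 library per mouse and 5 mice per diet. From an age of about 3 weeks all mice were kept for 6 weeks on the TWD (Total Western Diet), which copies the nutrient intake of people in the United States. For another 3 weeks, resistant potato starch (RPS), which escapes digestion and is fermented in the large bowel, made up 0, 2, 5, or 10% of that diet. The 0% RPS mice therefore also carried the full TWD exposure, and no group without TWD was included in these comparisons.

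Aldo-keto reductases turn aldehydes and ketones into alcohols. Akr1b3 is aldose reductase, which makes sorbitol from glucose in the first step of the polyol pathway. Akr1b7 was first described in the vas deferens and adrenal cortex, where it reduces the aldehyde released when the cholesterol side chain is cut, and it can also form prostaglandin F. It is a known target of nuclear receptors for bile acids, oxysterols, and xenobiotics in liver and gut. Akr1b8 reduces lipid aldehydes and retinaldehyde and is known from the intestinal epithelium. A further relative at the locus, Akr1b10, shares most of its sequence with Akr1b7 and was used as the nearest comparison.

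The genes lie together on chromosome 6 (GRCm39). Akr1b3 (ENSMUSG00000001642) covers positions 34279369 to 34294434 on the minus strand. Akr1b8 (ENSMUSG00000029762) covers 34331054 to 34345409, Akr1b10 (ENSMUSG00000061758) covers 34361153 to 34374663, and Akr1b7 (ENSMUSG00000052131) covers 34389021 to 34400449, all on the plus strand. Each main transcript has a coding sequence of 948 bases. Akr1b7 was 89.2% identical to Akr1b10 in coding sequence, 85.0% to Akr1b8, and 72.4% to Akr1b3. The longest run of coding bases that Akr1b7 shares with Akr1b10 was 59 bases, longer than a 50-base read, and lies in exon 3 of the main Akr1b7 transcript (chr6:34393065-34393123). It is shown because reads inside it cannot be told apart between these neighbours. Coding bases 232 to 320 of each gene follow, with the shared run in capitals for Akr1b7 and, for the others, with capitals at each base that differs from Akr1b7.
Akr1b7: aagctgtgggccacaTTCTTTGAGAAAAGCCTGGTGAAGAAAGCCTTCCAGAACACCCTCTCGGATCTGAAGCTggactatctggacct
Akr1b10: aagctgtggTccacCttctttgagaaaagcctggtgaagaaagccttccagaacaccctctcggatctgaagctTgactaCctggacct
Akr1b8: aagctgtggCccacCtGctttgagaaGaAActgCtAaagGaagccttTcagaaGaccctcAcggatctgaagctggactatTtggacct
Akr1b3: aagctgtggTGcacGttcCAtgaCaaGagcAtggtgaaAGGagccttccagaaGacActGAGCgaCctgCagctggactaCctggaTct

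Over these 89 bases Akr1b10 differed from Akr1b7 at 4 positions, Akr1b8 at 13, and Akr1b3 at 21. Over whole transcripts the possible sharing was small. Of the 50-base windows of Akr1b7, 0.51% also occurred in another Akr1b gene, as did 1.46% of those of Akr1b8 and none of the 8722 windows of Akr1b3. Akr1b3 shared 9.36% of its windows in the same sense with other genes, mostly pseudogene copies. An antisense noncoding gene that was not among the genes analysed, Gm68356, overlaps 17.61% of the exonic bases of Akr1b7. Use of strand in counting was not stated, so reads of Gm68356 could have been counted for Akr1b7.

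The bases before the start of Akr1b7 and Akr1b8 are shown because Akr1b7 differed between diets while Akr1b8 did not pass the test. Sequences are from RefSeq (GRCm38.p6, not the build of the counts) and cover chr6:34412112-34412361 for Akr1b7 and chr6:34353896-34354145 for Akr1b8, both on the plus strand. No entry was used for Akr1b3. Capitals mark matches to any of the motifs searched.
Akr1b7: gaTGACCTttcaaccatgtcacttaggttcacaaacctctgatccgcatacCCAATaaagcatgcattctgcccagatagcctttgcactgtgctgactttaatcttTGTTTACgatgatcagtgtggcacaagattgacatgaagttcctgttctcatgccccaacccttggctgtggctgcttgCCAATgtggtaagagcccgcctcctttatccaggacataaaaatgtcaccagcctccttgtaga
Akr1b8: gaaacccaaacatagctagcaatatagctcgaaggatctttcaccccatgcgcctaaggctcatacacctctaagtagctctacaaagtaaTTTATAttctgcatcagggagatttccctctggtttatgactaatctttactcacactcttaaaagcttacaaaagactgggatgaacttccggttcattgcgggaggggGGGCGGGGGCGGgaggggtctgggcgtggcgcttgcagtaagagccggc

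Both strands were searched. The Akr1b7 window held the single nuclear receptor site AGGTCA on the minus strand, which was present in 14.0% of 32851 mouse promoters of the same length. It also held CCAAT at 2 places (33.8% of promoters) and the forkhead motif TGTTTAC (3.17%). The Akr1b8 window held the TATA motif TATAAA on the minus strand (12.4%) and 2 adjacent GC boxes, GGGCGG (32.7%). The Akr1b10 window shared the nuclear receptor site and the forkhead motif with that of Akr1b7. The letters of the AP-1 motif TGANTCA, the cyclic AMP element TGACGTCA, and the antioxidant element TGACNNNGC were found in none of the 3 windows. No match overlapped another.

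Library totals were 20581013 to 35083751 counts, so that 3 counts, the smallest level taken as detected, lay at a CPM (the count over the library total, scaled) between 0.0855 and 0.146. Normalised counts below are counts divided by the DESeq2 size factor of the library. The library labelled 0% RPS replicate 2 stood apart, with a mean distance to the other libraries of its diet of 63.8 against 35.1 to 48.3 for the other 19 libraries. All 7 epithelial markers were measured in every diet, and their summed normalised count was 278826 to 389350 over the 20 libraries. The table also held all 7 smooth muscle markers, so these are libraries of the whole bowel wall, in which fewer cells of a type and less RNA per cell cannot be told apart.

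Akr1b7 was higher in every mouse that ate RPS than in any mouse on the TWD alone. In the 0% RPS mice the normalised counts were 134, 118, 82, 108, and 80. In the 2% RPS mice they were 313, 208, 234, 194, and 296. In the 5% RPS mice they were 290, 266, 280, 204, and 187. In the 10% RPS mice they were 246, 359, 224, 224, and 171. The lowest of the 15 RPS mice was thus 1.28 times the highest of the 0% RPS mice, and the 3 RPS diets overlapped one another. Of 12576 genes with a count, 9 (0.0716%) had all 15 RPS libraries above all 0% RPS libraries. For each level alone, the share of genes with all libraries above the 0% RPS libraries was 0.477% at 2%, 1.46% at 5%, and 1.35% at 10% RPS. This separation is part of why Akr1b7 was chosen.

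The size of the rise was nearly the same at each level of RPS. The mean was 104.1 ± 23.3 (SD, n = 5) at 0%, 249.0 ± 53.1 at 2%, 245.4 ± 47.0 at 5%, and 245.0 ± 69.7 at 10% RPS. The log2 fold change against 0% RPS was 1.26 ± 0.21 (SE) at 2%, with a 95% interval of 0.86 to 1.67. It was 1.24 ± 0.21 at 5% (0.84 to 1.64) and also 1.24 ± 0.21 at 10% (0.83 to 1.64). These comparisons share the 0% RPS libraries and are not independent of one another. Between starch diets, the log2 difference was -0.02 from 2 to 5% (interval -0.42 to 0.37), -0.02 from 2 to 10% (-0.42 to 0.37), and -0.00 from 5 to 10% (-0.39 to 0.39). With 1 library left out these differences were -0.10 to 0.07, -0.20 to 0.08, and -0.18 to 0.10, the lowest values from 2 to 10% and 5 to 10% coming without 10% RPS replicate 2. Without 3 libraries that carry label numbers apart from the series of the other 17, they were 0.22 from 2 to 10% and 0.17 from 5 to 10%. The intervals leave room for a further rise or fall of about 0.4 on the log2 scale above 2% RPS. No level between 0 and 2% was fed, so the counts do not show where below 2% the rise was reached.

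**Figure D1:**
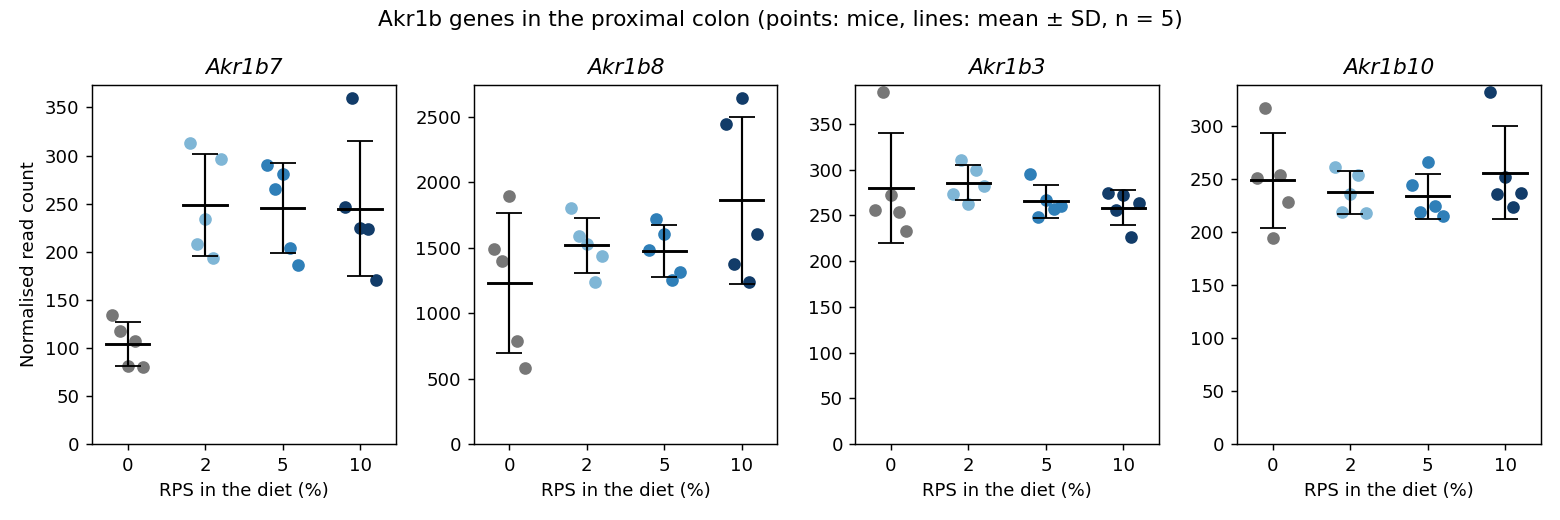
Normalised read counts (y axis, from 0, own scale per gene) of Akr1b7, Akr1b8, Akr1b3, and Akr1b10 in each mouse by percentage of RPS (x axis), with the mean and SD of 5 mice in black. All 15 RPS mice lie above the 0% RPS mice for Akr1b7, between 171 and 359, whereas the diets overlap for the other genes.

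A gene was called in DESeq2 when its adjusted p was at most 0.05 and its fold at least 1.5, the thresholds of the study. By this rule 0.0239% of 12561 genes were called at 2% RPS, 3 genes in all, and Akr1b7 was one of them. At 5% RPS 0.438% were called and at 10% RPS 0.900%, with Akr1b7 among both. Nothing is read from these calls, which used the contrasts that chose the gene. In edgeR no gene passed at 2% RPS (1000 had an unadjusted p under 0.05), Akr1b7 included. The share called was 0.0566% of 12366 genes at 5% and 0.323% at 10% RPS. Nothing is read from the outcome of Akr1b7 in edgeR either. Every diet comparison of Akr1b7 held 77 to 429 raw counts per library, far above the detection floor. When each library was left out in turn, the log2 fold change stayed between 1.17 and 1.37 at 2%, 1.16 and 1.34 at 5%, and 1.06 and 1.34 at 10% RPS. The lowest value came without the highest 10% RPS mouse, replicate 2.

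Akr1b8 was the most abundant member and varied most among the mice on the TWD alone. The 0% RPS normalised counts were 1492, 1396, 1898, 792, and 582. The 2% RPS counts were 1809, 1595, 1527, 1237, and 1440. The 5% RPS counts were 1482, 1724, 1604, 1253, and 1317. The 10% RPS counts were 2450, 1378, 2642, 1239, and 1603. No diet was separate from the 0% RPS mice, since replicate 3 of that group was above 13 of the 15 RPS mice, and only 10% RPS replicates 1 and 3 were above it. The lowest values were those of 0% RPS replicates 4 and 5. The coefficient of variation was 43.6% at 0%, 13.8% at 2%, 13.2% at 5%, and 34.4% at 10% RPS.

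None of the comparisons of Akr1b8 passed the test. The mean was 1232 ± 537 (SD, n = 5) at 0%, 1521 ± 210 at 2%, 1476 ± 195 at 5%, and 1863 ± 641 at 10% RPS. The log2 fold change against 0% RPS was 0.30 ± 0.25 at 2% (95% interval -0.19 to 0.79, DESeq2 adjusted p = 0.747) and 0.26 ± 0.25 at 5% (-0.23 to 0.75, adjusted p = 0.621). At 10% RPS it was 0.60 ± 0.25 (0.11 to 1.09), with an unadjusted p of 0.0171 and an adjusted p of 0.152. Without 0% RPS replicate 3 the 10% value was 0.81 with a DESeq2 adjusted p of 0.0239, which passed, and the other 9 fits with a library left out did not, with values down to 0.42 without replicate 5. At 2 and 5% RPS the values were 0.51 and 0.47 without 0% RPS replicate 3, and 0.13 and 0.08 without replicate 5, and none of these passed. Among the starch diets, where 0.00% of genes were called from 2 to 5%, 0.0557% from 2 to 10%, and 0.00796% from 5 to 10%, the log2 difference of Akr1b8 was -0.04 from 2 to 5% (-0.53 to 0.45, adjusted p = 1). It was 0.29 from 2 to 10% (-0.20 to 0.78, adjusted p = 0.785) and 0.34 from 5 to 10% (-0.15 to 0.83, adjusted p = 1). A slope over the percentage of RPS was 0.051 ± 0.023 log2 units per percent (DESeq2 adjusted p = 0.184), beside 4.29% of 12545 genes with a called slope in DESeq2 and 1.33% in edgeR. The intervals do not exclude a rise of Akr1b8 at any level of RPS.

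Akr1b3, aldose reductase, gave the flattest counts of the 3 members. Apart from 1 mouse, the 0% RPS normalised counts were 256, 273, 253, and 233, and replicate 2, the library that stood apart, was at 384. The 2% RPS counts were 274, 311, 262, 300, and 283. The 5% RPS counts were 295, 248, 267, 257, and 260. The 10% RPS counts were 274, 256, 272, 227, and 264. All diets overlapped, and 14 of the 15 RPS mice lay within the range of the 0% RPS mice.

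The mean of Akr1b3 was 279.8 ± 60.0 (SD, n = 5) at 0%, 285.7 ± 19.4 at 2%, 265.3 ± 17.8 at 5%, and 258.5 ± 19.2 at 10% RPS. Against 0% RPS the log2 fold change was 0.03 ± 0.12 at 2% (95% interval -0.20 to 0.26, DESeq2 adjusted p = 0.958), -0.07 ± 0.12 at 5% (-0.30 to 0.15, adjusted p = 0.777), and -0.11 ± 0.12 at 10% (-0.34 to 0.11, adjusted p = 0.618). Without 0% RPS replicate 2, the values were 0.17, 0.07, and 0.02. The slope was -0.014 log2 units per percent of RPS (DESeq2 adjusted p = 0.496).

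Levels were compared between genes per kilobase of the main transcript. Akr1b8 was highest at 0% RPS with 900.0 ± 392 (SD, n = 5) normalised counts per kilobase, followed by Akr1b3 with 198 ± 42.5 and Akr1b10 with 182 ± 32.6, and Akr1b7 was lowest with 54.8 ± 12.2. Akr1b3 and Akr1b10 differed by less than their spread, while the other steps were larger. At 2% RPS Akr1b7 reached 131 ± 27.9, still below Akr1b3 at 203 ± 13.7 and Akr1b10 at 173 ± 14.6. Of the summed level of the 4 Akr1b genes, Akr1b7 made up 4.38% ± 1.27 (SD, n = 5) at 0%, 8.07% ± 1.32 at 2%, 8.20% ± 0.90 at 5%, and 7.37% ± 3.10 at 10% RPS. Akr1b8 made up 65.1 to 72.0% on average. Akr1b7 thus remained the smallest part of the family in the PC on every diet by mean share.

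Akr1b10, the gene with the most similar coding sequence, did not follow Akr1b7. Its normalised counts were 195 to 317 in the 0% RPS mice and 215 to 332 in the RPS mice. The log2 fold change was -0.07 ± 0.13 at 2%, -0.09 ± 0.13 at 5%, and 0.04 ± 0.13 at 10% RPS, with DESeq2 adjusted p of 0.917, 0.760, and 0.889. The 95% interval at 10% RPS was -0.21 to 0.29.

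**Figure D2:**
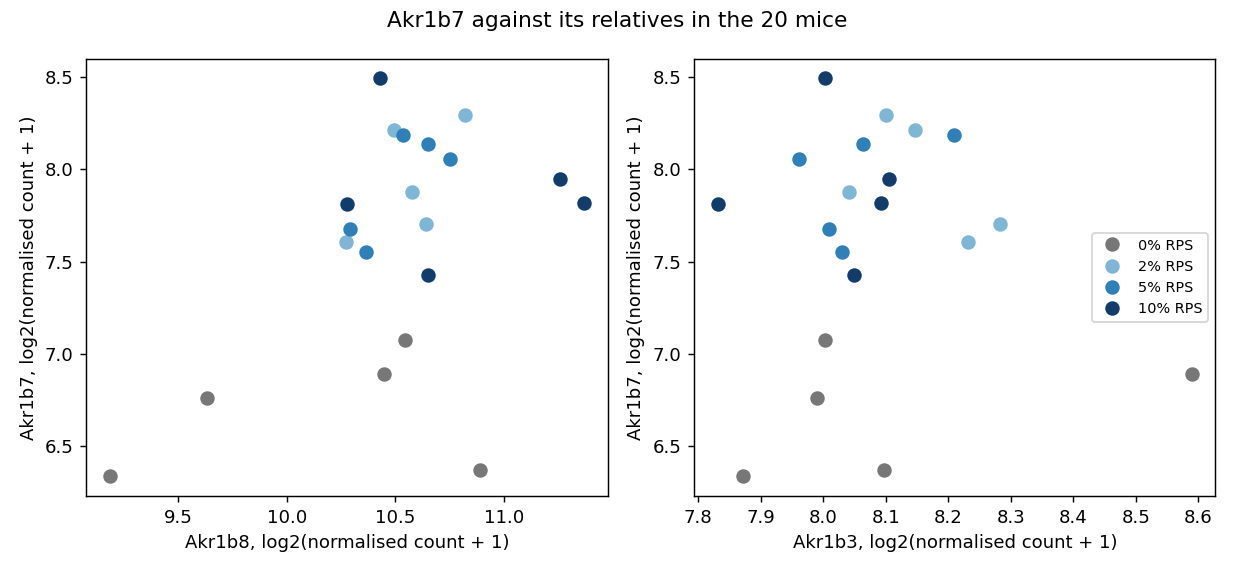
Log2(normalised count + 1) of Akr1b7 (y axis) against Akr1b8 and Akr1b3 (x axes) in the 20 mice, coloured by diet. The 0% RPS mice form a lower band in Akr1b7 in both panels, while along the x axes they span most of the range for Akr1b8, below 2 mice of the 10% RPS group, and reach furthest right, in replicate 2, for Akr1b3.

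Since Akr1b7 falls into 2 separate ranges by diet, the members were related to each other over the 15 RPS libraries only. Akr1b7 and Akr1b8 had r = 0.13 (permutation p = 0.656) and rho = 0.30 (permutation p = 0.272). Akr1b7 and Akr1b3 had r = -0.03 (permutation p = 0.915) and rho = 0.04 (p = 0.893). Akr1b8 and Akr1b3 had r = 0.16 (permutation p = 0.564) and rho = 0.18 (p = 0.524). Adjusted over the 3 pairs, the p values were 0.915 for each r and 0.787 to 0.893 for rho. Without the 2 libraries farthest from the median, r was 0.29, 0.04, and 0.18. A common course of the 3 genes from mouse to mouse was not detectable on the starch diets with 15 libraries.

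Markers of cell types were given beside the members. The summed normalised count of 8 of 8 absorptive colonocyte markers was 209912 to 492066 at 0%, 435512 to 537170 at 2%, 428995 to 537617 at 5%, and 433966 to 640315 at 10% RPS, and no marker was at 0. The 7 of 7 goblet cell markers summed to 481233 to 815008 at 0%, 450425 to 783364 at 2%, 683797 to 797684 at 5%, and 594993 to 1076940 at 10% RPS. The 3 of 4 measured crypt stem cell markers summed to 1597 to 2089 at 0%, 1475 to 1743 at 2%, 1330 to 1838 at 5%, and 1354 to 1654 at 10% RPS. The ranges of these sums overlapped between diets, and the lowest absorptive sum was that of 0% RPS replicate 2. The median goblet cell sum was 497086 at 0% and 693162, 753787, and 777343 at 2, 5, and 10% RPS. For absorptive markers the medians were 381477, 485341, 443147, and 496254 at 0, 2, 5, and 10% RPS. For crypt stem cell markers they were 1914, 1667, 1608, and 1479. What part these shifts had in the difference of Akr1b7 was not tested. All 7 goblet cell markers had a positive log2 fold change against 0% RPS at each level. Of the 7 epithelial markers 7, 6, and 7 were positive at 2, 5, and 10% RPS, and of the 8 absorptive markers 5, 6, and 6. Of the 7 smooth muscle markers 1, 0, and 0 were positive. None of the 6 fibroblast and 3 crypt stem cell markers was positive at any level. The median over all genes was -0.01, -0.01, and 0.00. With the smooth muscle score as a covariate, the log2 fold change of Akr1b7 was 1.27 at 2%, 1.26 at 5%, and 1.26 at 10% RPS. The smooth muscle sum had r = -0.14 with Akr1b7 over the 20 libraries. Absorptive, goblet, and crypt stem cell content was not adjusted for, so the covariate does not bear on it. No absorptive or goblet cell marker was called against 0% RPS in DESeq2 or edgeR. In DESeq2, 2, 2, and 3 of the 8 absorptive markers had an unadjusted p under 0.05 at 2, 5, and 10% RPS. Of the 7 goblet cell markers 2, 5, and 4 did, beside 1093, 2087, and 2365 of all 12561 genes. By slope per percent of RPS, Car4 (absorptive, 0.036, DESeq2 adjusted p = 0.0329), Agr2 (goblet, 0.053, 0.0358), and Epcam (epithelium, 0.016, 0.0230) rose. Smoc2 (crypt stem cells) fell by 0.043 (DESeq2 adjusted p = 0.00731). In edgeR only 1 crypt stem cell slope of these lists was called. Of all genes, 4.29% had a called slope in DESeq2 and 1.33% in edgeR.

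After adjustment, Akr1b8 was related by both r and rho only to the summed markers of tuft cells. The 2 highest mice for Akr1b8, 10% RPS replicates 1 and 3, were also the 2 highest for the absorptive colonocyte sum, at 604279 and 640315. Over the 20 libraries, the relation with this sum had r = 0.55 (permutation p = 0.0257, adjusted 0.0862) and rho = 0.75 (permutation p = 0.00034, adjusted 0.00816). Without the 2 farthest libraries r was 0.84, and within diets, over all 20 libraries, it was 0.36. The lowest sum, 209912, was that of 0% RPS replicate 2, the library that stood apart, with Akr1b8 at 1396. The next lowest sum was 351869. With the sum of 3 of 4 tuft cell markers, r was -0.77 (permutation p = 5e-05, adjusted 0.0012) and rho was -0.67 (permutation p = 0.00159, adjusted 0.0191). That relation had r = -0.72 within diets and -0.62 without the 2 farthest libraries. With the crypt stem cell sum, r was -0.67 (permutation p = 0.00143, adjusted 0.0172) and rho -0.49 (permutation p = 0.0279, adjusted 0.138), with r = -0.53 within diets and -0.67 without the 2 farthest libraries. In all, 24 relations of Akr1b8 and Akr1b3 with 12 marker lists were computed.

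No relation of Akr1b3 with a marker list passed the adjustment. Its largest was with 6 of 6 fibroblast markers, with r = 0.64 (permutation p = 0.00984, adjusted 0.059) and rho = 0.35 (permutation p = 0.127, adjusted 0.338). Without the 2 farthest libraries r was 0.37, and within diets it was 0.66. The fibroblast sum was highest in a 0% RPS mouse at 49276, beside 14903 to 26069 over the RPS diets. The smooth muscle sum was 131671 to 287275 at 0% and 120668 to 254143 over the RPS diets.

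Among the other aldo-keto reductases, Akr1c18 was called higher at 10% RPS. Akr1c19 was called lower at 5% RPS only with 0% RPS replicate 2 left out. Of 20 genes listed for the superfamily, 12 were in the table, 9 of them besides the 3 members. None of the 9 was called at 2 or 5% RPS (2 and 1 had an unadjusted p under 0.05 in DESeq2 and also in edgeR), and 1 was called higher at 10%, against 0.0239%, 0.438%, and 0.900% of all genes at 2, 5, and 10% RPS. Their median log2 fold change was 0.08, 0.06, and 0.04 at 2, 5, and 10% RPS, against -0.01, -0.01, and 0.00 for all genes. In DESeq2, 1093 and 2087 of all 12561 genes had an unadjusted p under 0.05 at 2 and 5% RPS. The gene called was Akr1c18, a hydroxysteroid dehydrogenase that inactivates progesterone. Its normalised counts were 134, 48, 132, 39, and 81 at 0% and 176, 96, 164, 197, and 206 at 10% RPS. The groups overlapped only through 10% RPS replicate 2, which was below 0% RPS replicates 1 and 3.

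Akr1c18 had a log2 fold change of 0.16 ± 0.30 at 2%, 0.47 ± 0.30 at 5%, and 0.96 ± 0.30 at 10% RPS, with DESeq2 adjusted p of 0.913, 0.428, and 0.0379. Its slope of 0.097 log2 units per percent had an adjusted p of 0.0157. By contrast with Akr1b7, its mean was higher with each step of RPS, at 86.7, 96.5, 119.9, and 167.8. The call was not firm. In edgeR the adjusted p at 10% RPS was 0.107, and the slope was not called either. With 1 library left out, the DESeq2 call remained without 0% RPS replicate 1, 0% RPS replicate 3, or 10% RPS replicate 2. It was lost without any other single library of the 0 and 10% RPS diets, with an adjusted p of up to 0.149. The call was also lost with only the 0 and 10% RPS libraries in the fit (adjusted p = 0.121). Without the same 3 libraries as above it was lost too (log2 fold change 0.75, adjusted p = 0.317). The other list members included those with the most counts, not scaled to length, which were Akr1a1, a general aldehyde reductase, and Akr1c19 and Akr1c13, relatives of the hydroxysteroid dehydrogenases. Akr1a1 had a log2 fold change of 0.17 ± 0.07 at 2%, 0.11 at 5%, and 0.11 at 10% RPS (adjusted p of 0.450, 0.406, and 0.341). Akr1c19 had -0.24 ± 0.20, -0.46 ± 0.20, and -0.54 ± 0.20 (adjusted p of 0.757, 0.216, and 0.0997). Its normalised count in 0% RPS replicate 2 was 3806, beside 8256 to 12932 in the other 0% RPS mice. Without that library its value at 5% was -0.66 with a DESeq2 adjusted p of 0.000193. The values at 2 and 10% RPS above rest on the same library. Akr1c13 had 0.08, -0.03, and -0.05 (adjusted p of 0.866, 0.919, and 0.844).

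**Figure D3:**
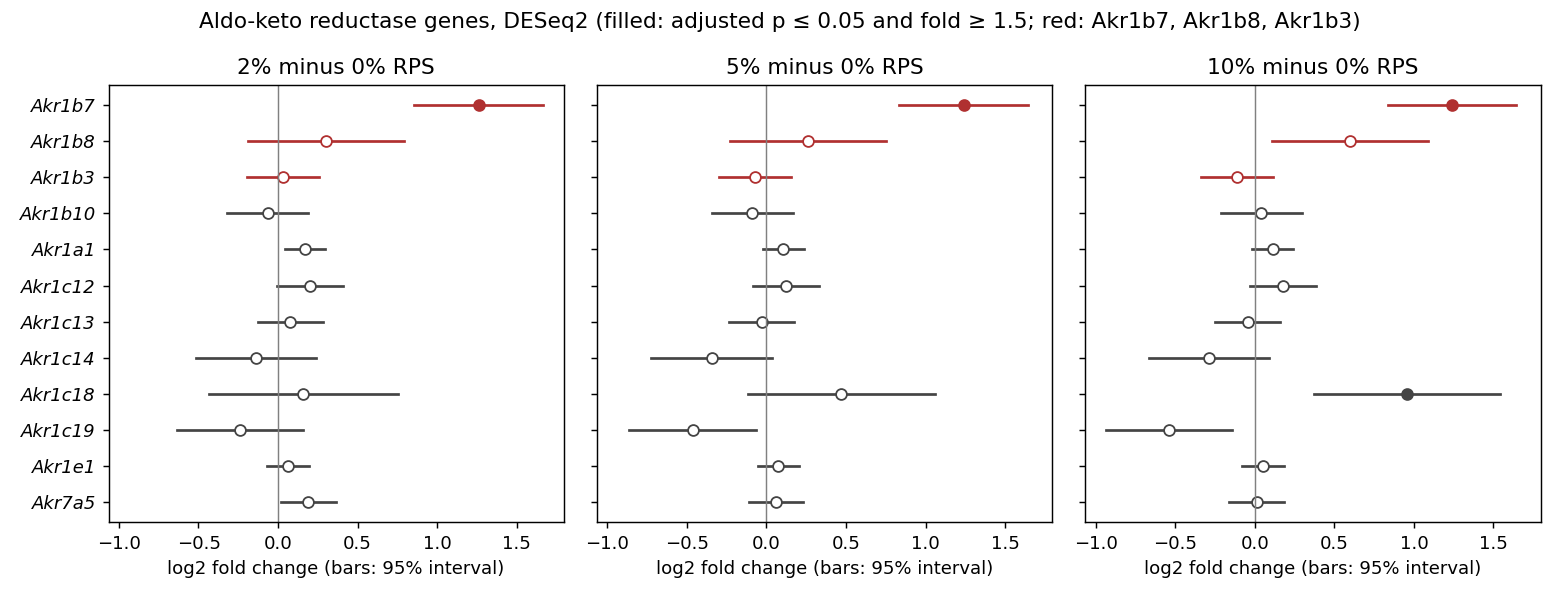
Log2 fold change (x axis, bars 95% interval) of the 12 measured aldo-keto reductases at 2, 5, and 10% against 0% RPS in DESeq2, with the members Akr1b7, Akr1b8, and Akr1b3 in red and filled points for genes past both thresholds. Akr1b7 lies near 1.25 in all panels, and Akr1c18 is filled in the 10% panel with 0.96.

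Pathways around the members were followed with lists of genes, beside 0.0239%, 0.438%, and 0.900% of all genes called in DESeq2 at 2, 5, and 10% RPS. An unadjusted p under 0.05 in DESeq2 was held by 1093, 2087, and 2365 of all 12561 genes at these levels. In the polyol and fructose pathway, in which Akr1b3 works, 0 of 9 genes were called in any comparison by DESeq2 or edgeR, with 0, 2, and 2 at an unadjusted p under 0.05 at 2, 5, and 10% RPS. Targets of NRF2, the sensor of electrophiles that also controls several reductases, gave 0 of 19 calls in either tool, with 3, 3, and 5 at an unadjusted p under 0.05 in DESeq2. Targets of the xenobiotic receptors PXR and CAR gave 0 of 6 calls (0, 0, and 1 at an unadjusted p under 0.05), and those of the bile acid receptor FXR 0 of 3 (0, 1, and 0). The 6 measured genes of intestinal steroid synthesis gave 0 calls (1, 0, and 1 at an unadjusted p under 0.05).

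Genes were called in the lists of nuclear receptors, LXR targets, aldehyde clearance, and prostaglandin metabolism, mostly by their slope over the percentage of RPS. Nr1h3, which encodes the oxysterol receptor LXR alpha, fell by 0.048 log2 units per percent of RPS (DESeq2 adjusted p = 0.00417). Its mean went from 819 ± 137 (SD, n = 5) normalised counts at 0% to 574 ± 91.2 at 10% RPS. Abca1, a cholesterol exporter controlled by that receptor, fell by 0.051 per percent (adjusted p = 0.0137), from 614 ± 124 to 409 ± 87.7. Each was the only gene of its list with a called slope, out of 11 nuclear receptor genes and 6 LXR targets, and among so few genes 1 call is not set apart from the 4.29% of all genes with a called slope. Neither passed both thresholds against 0% RPS at any single level in DESeq2. At 10% RPS both missed only the fold threshold. Nr1h3 had a log2 fold change of -0.51 (DESeq2 adjusted p = 0.00486) and Abca1 one of -0.58 (adjusted p = 0.0037). In edgeR 1 LXR target was called at 10%. Among 17 aldehyde-clearing genes, Adh1, an alcohol dehydrogenase that also oxidises retinol, fell at 10% RPS with a log2 fold change of -0.69 ± 0.21 (adjusted p = 0.0349). Aldh3b1, an aldehyde dehydrogenase of lipid aldehydes, rose by 0.038 per percent (adjusted p = 0.00468). In edgeR the slopes of 1 nuclear receptor gene and 1 aldehyde-clearing gene were called, but not those of Abca1 and Slco2a1. At 10% RPS edgeR called 0 of the aldehyde-clearing genes (2 had an unadjusted p under 0.05, beside 2230 of all 12366 genes). Of 17 prostaglandin genes, 1, the transporter Slco2a1 rose by 0.027 per percent (adjusted p = 0.0497), again not set apart from the share over all genes.

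The genes on either side of the cluster did not share the course of Akr1b7. Of the protein-coding genes within 250 kilobases, 3 were in the table. Slc35b4, a nucleotide sugar transporter, had log2 fold changes of -0.01, -0.00, and 0.04 at 2, 5, and 10% RPS (DESeq2 adjusted p of 0.956, 0.989, and 0.733). Bpgm, an enzyme of glycolytic side metabolism, had 0.10, 0.13, and 0.22 (adjusted p of 0.825, 0.578, and 0.266). Cald1, an actin-binding protein of smooth muscle, had -0.24, -0.40, and -0.36 (adjusted p of 0.772, 0.329, and 0.349).

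The genes most like Akr1b7 over the 20 libraries were found by Pearson's r of log2(normalised count + 1), a description that the shared difference between 0% RPS and the other diets largely sets. Of 12347 genes, 45 (0.364%) had r above 0.7. The highest was Lrrc42 with 0.83, followed by Serpinb1a, a protease inhibitor, with 0.79, Mal, a lipid raft protein of apical transport, with 0.78, the noncoding Gm33424 with 0.78, and Cmtm6 with 0.76. The most opposite were Letmd1 with -0.82 and Zfp282 with -0.77. Within diets these values shrank to 0.53 for Lrrc42, 0.37 for Serpinb1a, 0.55 for Mal, 0.19 for Gm33424, 0.40 for Cmtm6, -0.44 for Letmd1, and -0.52 for Zfp282. Mal and Gm33424 also had all 15 RPS libraries above the 0% RPS libraries.

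Beyond 2% RPS, the genes with similar profiles took different courses. Gm33424 had mean normalised counts of 46.9, 113.3, 131.6, and 169.6 at 0, 2, 5, and 10% RPS, a further rise in the mean beyond 2%. Mal had 997 ± 108 (SD, n = 5), 2070 ± 1050, 3503 ± 1919, and 2427 ± 133, with its highest mouse in the 5% group. Lrrc42 had 2414, 3000, 3321, and 3239, a mean 1.24 to 1.38 times that of the 0% RPS mice. Akr1b7 was 2.39, 2.36, and 2.35 times its 0% RPS mean. Of the opposite genes, Letmd1 was 0.87, 0.84, and 0.86 times its 0% RPS mean at 2, 5, and 10% RPS. Zfp282 was 0.85, 0.88, and 0.86 times, so both were already near their later level at 2%. Whether Akr1b7 differs in this from the other genes was not tested.

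**Figure D4:**
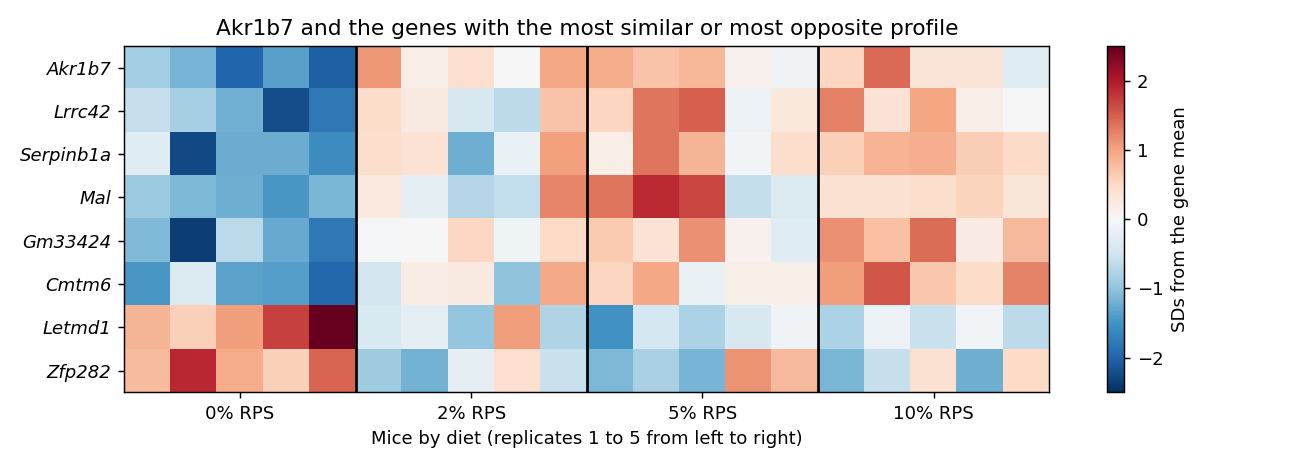
Log2(normalised count + 1) of Akr1b7, its 5 most similar and its 2 most opposite genes, in SDs from the mean of each gene (colour), for the 20 mice in columns grouped by diet. The 5 mice of the 0% RPS group are blue for Akr1b7 and the similar genes and red for the opposite genes, and the RPS mice vary without a common order of the diets.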

How the data were processed

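The authors isolated RNA from a 1-cm segment of the PC, prepared stranded mRNA libraries and sequenced single-end reads of 50 bases. Per the methods of the study, reads were filtered by quality and aligned and counted in CLC Genomics Workbench on GRCm39. The deposited values are whole-number counts per Ensembl gene, not normalised and not pooled. The annotation, use of strand, treatment of reads with several matches, and gene filter are not given in the sources used here.

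Diets came from the labels, and replicates were numbered within a diet. Members, gene lists, and the rule for named genes were chosen with earlier results of these data known. Besides the members, that rule names list genes called in any comparison or most abundant among the aldo-keto reductases, genes within 250 kilobases, and the 5 most similar and 2 most opposite profiles. Counts of all 20 libraries were fitted once in DESeq2 (version 1.42.0, R version 4.3.3), as in the study, with Wald tests, default filtering, and Benjamini-Hochberg adjustment over all genes. A gene was called when its adjusted p was at most 0.05 and its fold at least 1.5, and a slope at the adjusted p alone. Intervals are 95% normal intervals from the SE. The quasi-likelihood test of edgeR (version 4.0.16) was the main alternative. The tests were tried on simulated counts. Correlations used 100000 permutations, two-sided, so the smallest p possible is near 1e-05. The permutations ignored diet. Gene models are those of GENCODE M39 (12682 of 12701 identifiers matched), and lengths are those of the main transcript. T cell markers were not analysed here. Separate mice are the replicates, and litter or cage was not given. Library totals set counting error only and are high for all members.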

Additional observations from a re-analysis of the deposited data

Results flagged for a closer look

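In groups of 5 mice, a mouse was singled out when its gap to the nearest other mouse was more than 0.71 of the range of the group. Of 60 groups over 15 genes, 5 were singled out, and chance alone gives about 5%. Akr1b3 was at 384 normalised counts in 0% RPS replicate 2, with the other 4 mice at 233 to 273. Cald1 was at 15881 in the same library, with the others at 6356 to 8795. Akr1b10 was at 332 in 10% RPS replicate 1, with the others at 224 to 252. Akr1c14 was at 1625 in 5% RPS replicate 3, with the others at 2169 to 2376. Akr7a5 was at 1734 in 0% RPS replicate 1, with the others at 1332 to 1437. No diet group of Akr1b7 or Akr1b8 was singled out.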

How the results depend on the processing

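The direction of Akr1b7 against 0% RPS was kept in every alternative, with log2 fold changes of 1.19 to 1.27 at 2%, 1.24 to 1.26 at 5%, and 1.23 to 1.41 at 10% RPS apart from left-out libraries. Between the starch diets Akr1b7 reached 0.22 for 10 against 2% and 0.17 for 10 against 5% without 3 libraries, within the intervals of the report. For Akr1b8 and Akr1b3, 41 of 42 such values each kept direction and side of the threshold. With the smooth muscle covariate the Akr1b8 difference from 2 to 5% RPS was 0.0013, and without 3 libraries with label numbers outside the run of the others the Akr1b3 difference from 5 to 10% was 0.0075; both were near 0 in the main analysis, and the cause was not tested. With libraries left out in turn, Akr1b8 ranged from 0.13 to 0.51, 0.08 to 0.47, and 0.42 to 0.81 for 2, 5, and 10 against 0% RPS, the last passing in 1 of 10 fits, and from -0.11 to 0.025 for 5 against 2%. Akr1b3 ranged from -0.027 to 0.17, -0.13 to 0.066, and -0.17 to 0.024 against 0% RPS and from -0.063 to 0.0032 for 10 against 5%. Of the other aldo-keto reductases, edgeR called 0 at 10% RPS in place of 1, and left-out libraries gave 0 to 1 at 5 and 10%. Over all genes DESeq2 called 3, 55, and 113 at 2, 5, and 10% RPS against 0, 7, and 40 in edgeR, and 3, 239, and 578 without the fold threshold. Between starch diets DESeq2 called 0, 7, and 1 genes (5 against 2, 10 against 2, and 10 against 5%) and edgeR 0 in each. No paired analysis was possible because no replicate number in the labels links mice of different diets.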
